A study of Mus musculus with 6 samples.

Results

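The genes described here are the 3 TAM receptor genes Tyro3, Axl and Mertk, their ligand genes Gas6 and Pros1, and the integrin route of outer segment uptake, given by Itgav, Itgb5 and Mfge8. They were taken by symbol from the deposited table of 55450 genes, and each of the 8 symbols matched 1 row. The table covers retinal RNA of C57BL/6 mice at 8 weeks of age, with 3 libraries named Myrf-kd, which the series describes as Myrf +/−, and 3 wild type (WT) libraries. Myrf encodes a transcription factor anchored in membranes and is known for driving myelin genes in oligodendrocytes. Which part of Myrf is altered, and whether each library is a separate animal, is not said in the labels, so the p-values measure the spread between these libraries, which may be in part technical. Levels are in FPKM, fragments scaled to transcript length and library depth, and can be compared between genes. Tests were run on the counts with edgeR.

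Photoreceptors shed the tips of their outer segments every day, and the retinal pigment epithelium beneath them takes the shed tips up. Shed membrane exposes the lipid phosphatidylserine. Gas6 and protein S, the product of Pros1, bind this lipid and bridge it to the TAM receptors, which are tyrosine kinases. Mertk drives the ingestion step, and rats that lack it lose their photoreceptors. The integrin of alpha v (Itgav) and beta 5 (Itgb5) binds the shed tips through Mfge8, a secreted bridge between phosphatidylserine and the integrin. Mueller glia, microglia and neurons of the retina also use members of this family, so a level in whole retina belongs to no single cell type.

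The libraries held 50695091 to 70298511 count units, at about 4 units per sequenced fragment. The labelled tissue carried its markers, with the rod transducin gene Gnat1 between 2926 and 3329 FPKM and the Mueller glia gene Glul between 710 and 817 FPKM. Pigment epithelium was present as well, with Rpe65 between 5.97 and 14.8 FPKM. The targeted gene Myrf was at 0.279, 0.382 and 0.351 FPKM in Myrf-kd 1, 2 and 3, against 0.359, 0.397 and 0.463 FPKM in WT 1, 2 and 3, so its groups overlapped. By Xist, Myrf-kd 3 (69.6 FPKM) and WT 3 (58.9 FPKM) were the female libraries, and the other 4 held at most 0.397 FPKM.

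None of the 8 genes passed the test between Myrf-kd and WT, while 6 of 13674 genes (0.0439%) did (Benjamini-Hochberg adjusted p under 0.05 in the quasi-likelihood fit of edgeR). All 8 passed the filter on low values, and all 8 had an estimate below WT, as did 49.0% of all genes tested. That count became 6 of 8 without Myrf-kd 3, without Myrf-kd 2 or without WT 2. Before adjustment edgeR put 1 of the 8, Mertk, under 0.05, against 3.72% of all genes lower and 3.76% higher in Myrf-kd, or 7.48% in either direction (DESeq2 gave 2 of the 8, Mertk and Tyro3). The CPM of the groups did not overlap in 2 of the 8, Mertk and Tyro3, both lower in Myrf-kd, against 7.50% of all genes lower and 7.13% higher. Mertk alone met both criteria, as did 3.33% of all genes on the lower side. The median log2 fold change of the 8 genes was −0.16, and that of all genes tested 0.0041.

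**Figure D1:**
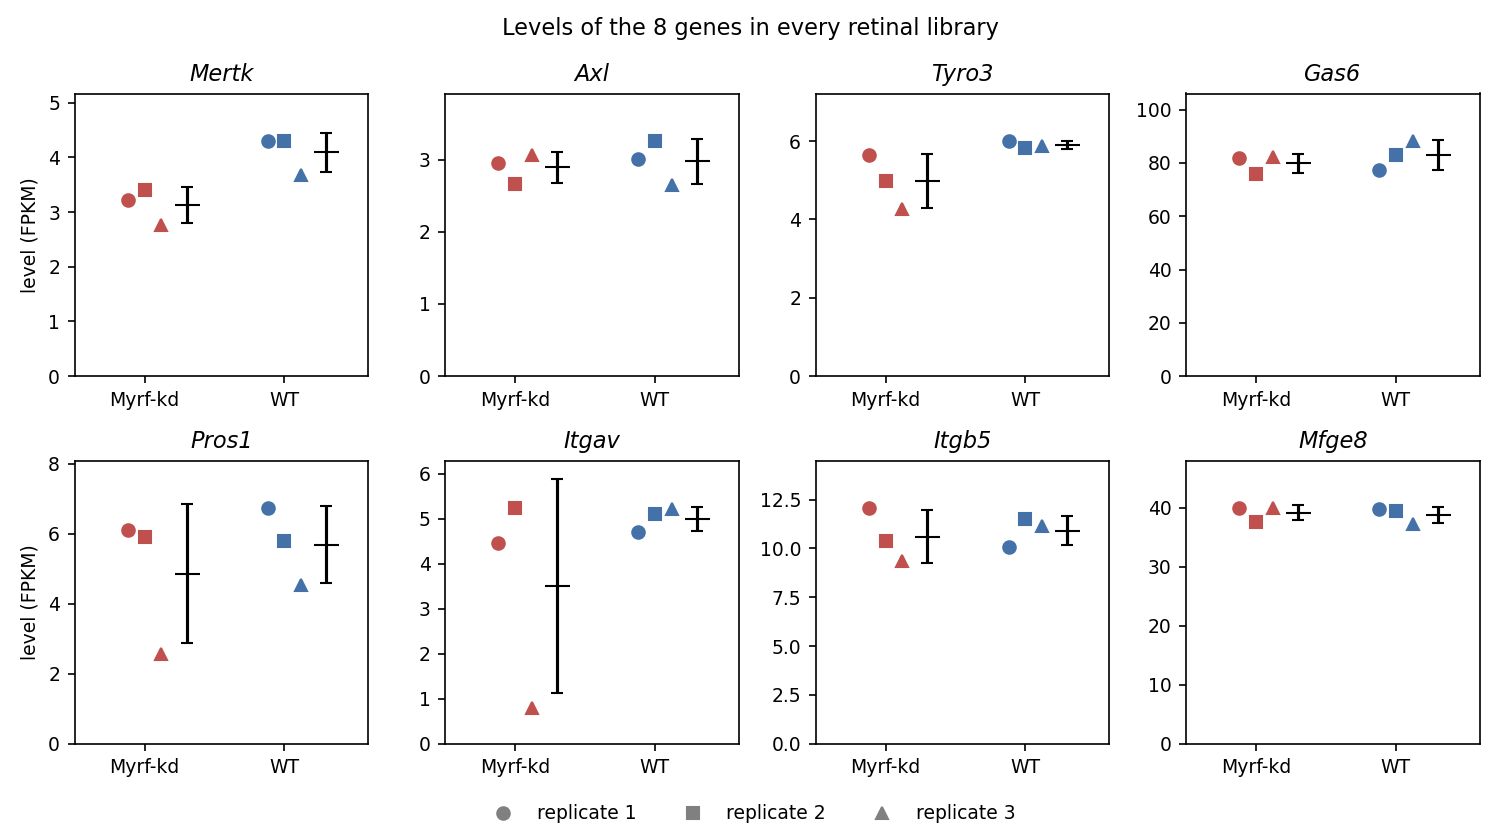
Levels in FPKM of the 8 genes in each library, with Myrf-kd left of WT, 1 symbol per replicate number, and the mean with its SD (n = 3) beside the points; each panel starts at 0. Mertk and Tyro3 are the genes whose groups do not overlap, and Itgav shows 1 Myrf-kd library at 0.790 FPKM.

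Per length, Gas6 and Mfge8 were the most abundant of the 8 genes. Gas6 averaged 81.4 FPKM over the 6 libraries, above 97.8% of the genes tested, and Mfge8 averaged 39.0 FPKM, above 93.9%. Itgb5 followed at 10.8 FPKM, and these 3 genes kept their order in every library with no overlap of their ranges. Below them came Tyro3 at 5.44, Pros1 at 5.27, Itgav at 4.25, Mertk at 3.61 and Axl at 2.93 FPKM. Each pair of neighbouring ranges among these 5 overlapped, and no neighbouring pair kept its order in every library. Tyro3 was nevertheless the highest of the TAM receptors in every library. Its lowest value, 4.28 FPKM, lay above the highest of Axl, 3.26 FPKM. Tyro3 exceeded Pros1 in 3 of 6 libraries, Pros1 exceeded Itgav in 5 of 6, and Itgav exceeded Mertk in 5 of 6. Mertk exceeded Axl in 5 of 6 libraries, and Myrf-kd 3 was the exception.

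Mertk (ENSMUSG00000014361, chromosome 2, 128698956 to 128802894, plus strand, GRCm38) encodes the receptor of outer segment ingestion. It was at 3.23, 3.40 and 2.76 FPKM in Myrf-kd 1, 2 and 3, against 4.29, 4.31 and 3.68 FPKM in WT 1, 2 and 3. All 3 Myrf-kd libraries lay below all 3 WT libraries, and in each group the female library, numbered 3, was the lowest. Without both female libraries the log2 fold change was −0.40 (edgeR unadjusted p = 0.0159). The means were 3.13 ± 0.332 FPKM in Myrf-kd, against 4.09 ± 0.359 FPKM in WT (SD, n = 3 each), with 235 to 346 fragments behind each value. Relative to WT, Myrf-kd stood at a fitted 75.5%, and the 95% interval ran from 62.1% to 91.9% (log2 fold change −0.41, SE 0.12). Over all genes this missed the threshold (edgeR unadjusted p = 0.0118, adjusted p = 0.666). An exact two-sided permutation test of log2 CPM gave p = 0.1, the smallest that 3 libraries against 3 allow. Across 15 other settings, all drawn from these same libraries, the log2 fold change stayed between −0.48 and −0.30. The unadjusted p (edgeR, DESeq2 or limma) was 0.00422 to 0.0426 and the adjusted p 0.271 to 0.923. In a whole retina, fewer cells of a type and less RNA per cell cannot be told apart. Inside Mertk lie an antisense gene, Gm14011, listed without signal in every library, and a small nucleolar RNA gene in an intron.

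Myrf binds DNA, and the motif known for it in oligodendrocytes reads CTGGCAC or CTGGTAC. Neither was found on either strand in the 250-base RefSeq promoter window (GRCm38.p6) of any of the 8 genes. Of 32851 promoters of that length, 4.19% held CTGGCAC, 1.83% CTGGTAC and 5.93% either, so the absence says only that these letters are not in these windows. Upstream bases of Mertk, the gene with the smallest p, and of Axl, the receptor whose groups overlapped most fully, are shown 5′ to 3′ on the strand of the gene, in lower case since they hold no match. They lie at chr2:128698665-128698914 (plus strand) and chr7:25788734-25788983 (minus strand) and hold 7 and 5 CpG sites.
Mertk upstream: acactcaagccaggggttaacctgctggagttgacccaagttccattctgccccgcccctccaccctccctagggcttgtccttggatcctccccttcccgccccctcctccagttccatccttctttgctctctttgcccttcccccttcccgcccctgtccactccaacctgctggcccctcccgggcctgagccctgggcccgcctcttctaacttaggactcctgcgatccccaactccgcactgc
Axl upstream: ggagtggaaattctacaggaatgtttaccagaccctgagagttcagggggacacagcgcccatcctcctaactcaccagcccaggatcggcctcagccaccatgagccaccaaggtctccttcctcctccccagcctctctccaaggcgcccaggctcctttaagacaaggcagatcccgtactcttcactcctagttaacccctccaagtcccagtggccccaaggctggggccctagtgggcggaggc
Neither stretch overlaps an annotated exon of its gene. The window of Tyro3, with 24 CpG sites, does, and the median over all promoters was 6. That window, chr2:119799264-119799513, lies inside Tyro3 as placed in the deposited data. The bases before the Tyro3 start given below were therefore not searched.

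Tyro3 (ENSMUSG00000027298, chromosome 2, 119797733 to 119818104, plus strand) encodes the TAM receptor known mostly from neurons. It was at 5.65, 4.99 and 4.28 FPKM in Myrf-kd 1, 2 and 3, against 6.01, 5.82 and 5.87 FPKM in WT 1, 2 and 3. The groups did not overlap, although Myrf-kd 1 lay close to WT, and Myrf-kd 3 was the lowest. The WT libraries were tightly grouped, at 5.90 ± 0.0991 FPKM, and the Myrf-kd libraries spread more, at 4.97 ± 0.688 FPKM (SD, n = 3 each). Relative to WT, Myrf-kd stood at a fitted 83.3%, and the interval ran from 69.0% to 100.4% (log2 fold change −0.26, SE 0.11). This missed the threshold too (edgeR unadjusted p = 0.0542, adjusted p = 0.675). The exact permutation test gave p = 0.1, its smallest value. Without Myrf-kd 3 the log2 fold change was −0.17, and without Myrf-kd 1 it was −0.37.

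Axl (ENSMUSG00000002602, chromosome 7, 25757273 to 25788705, minus strand) encodes a TAM receptor known for binding Gas6 and for its role in macrophages and vessels. It was at 2.95, 2.66 and 3.07 FPKM in Myrf-kd 1, 2 and 3, against 3.01, 3.26 and 2.65 FPKM in WT 1, 2 and 3. The lowest and the highest value both belonged to WT, so the groups overlapped fully on the FPKM scale. The fitted level was 96.1% of WT, with an interval from 79.0% to 117% (edgeR adjusted p = 0.913). Its estimate turned positive without Myrf-kd 2 and without WT 2.

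The receptors were also read against each other within each library, where any scaling common to the whole library cancels. FPKM is already scaled to depth. Mertk made up 27.3%, 30.8% and 27.3% of the summed FPKM of the 3 receptors in Myrf-kd 1, 2 and 3, against 32.2%, 32.2% and 30.2% in WT 1, 2 and 3. The groups overlapped through Myrf-kd 2. Axl made up 24.9%, 24.0% and 30.4% of the sum in Myrf-kd, against 22.6%, 24.4% and 21.7% in WT. Tyro3 held 45.1 ± 2.72% in Myrf-kd and 45.6 ± 2.35% in WT (SD, n = 3 each). The summed level itself was 11.8, 11.0 and 10.1 FPKM in Myrf-kd, against 13.3, 13.4 and 12.2 FPKM in WT, with no overlap. Axl made up at most 30.4% of it, so the sum largely restates Mertk and Tyro3, whose own groups did not overlap.

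**Figure D2:**
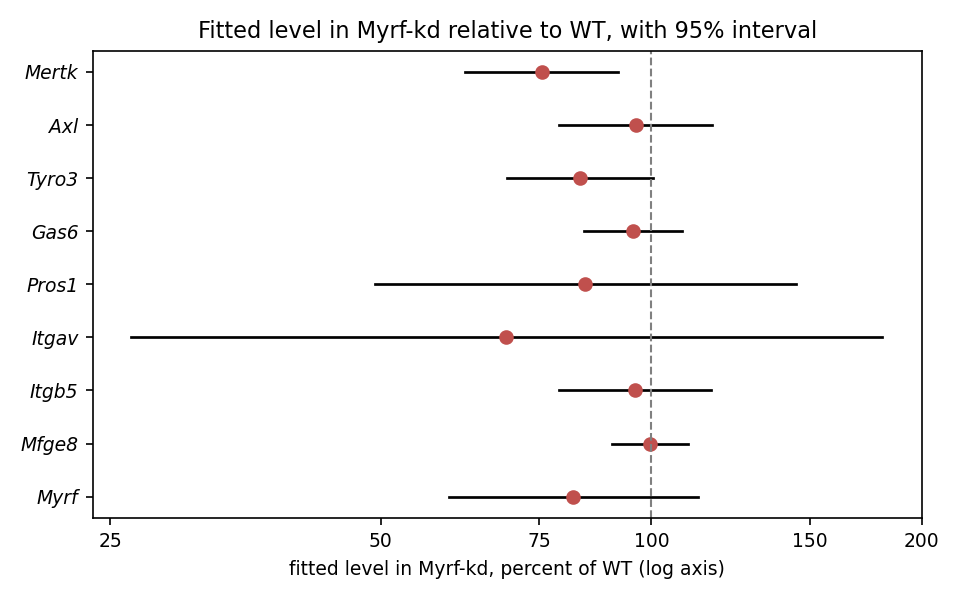
Fitted level in Myrf-kd as a percentage of WT for the 8 genes and Myrf (points, edgeR) with 95% intervals (lines), on a log axis; the dashed line marks 100%. The interval of Mertk, 62.1% to 91.9%, is the only one wholly below 100%, before any adjustment over the genes tested, and that of Itgav is the widest.

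Of the ligands, Gas6 (ENSMUSG00000031451, chromosome 8, 13465374 to 13494490, minus strand) was at 81.7, 75.9 and 82.3 FPKM in Myrf-kd 1, 2 and 3, against 77.2, 83.0 and 88.4 FPKM in WT 1, 2 and 3. The groups overlapped. The fitted level was 95.3% of WT, with an interval from 84.0% to 108.1% (edgeR adjusted p = 0.817), at a depth of 3109 to 4513 fragments. The log2 fold change of −0.07 became −0.02 without WT 3 and −0.13 without WT 1. Its 3′ end lies opposite that of Tmem255b, and no source used here says whether the libraries keep strand. Reads from this stretch cannot be told apart. Tmem255b was at 2.34 FPKM in Myrf-kd, against 2.68 FPKM in WT.

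Pros1 (ENSMUSG00000022912, chromosome 16, 62854307 to 62929346, plus strand), also known for protein S in clotting, was at 6.12, 5.90 and 2.56 FPKM in Myrf-kd 1, 2 and 3. The WT libraries 1, 2 and 3 held 6.73, 5.79 and 4.55 FPKM. Again the library numbered 3 was the lowest of each group, and Myrf-kd 3 was the lowest of all. The fitted level was 84.4% of WT, with an interval from 49.2% to 145% (edgeR adjusted p = 0.854). Without Myrf-kd 3 the log2 fold change was 0.06 in place of −0.24, so the sign of the estimate rests on that library. In the same library the ratio of Gas6 to Pros1 was 32.1, against 13.3 and 12.9 in Myrf-kd 1 and 2 and 11.5, 14.3 and 19.4 in WT 1, 2 and 3.

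On the integrin route, Mfge8 (ENSMUSG00000030605, chromosome 7, 79133768 to 79149053, minus strand) was the steadiest of the 8 genes. It was at 39.9, 37.7 and 39.9 FPKM in Myrf-kd 1, 2 and 3, against 39.7, 39.4 and 37.3 FPKM in WT 1, 2 and 3. The groups overlapped, and the fitted level was 99.7% of WT with an interval from 90.5% to 109.8% (edgeR adjusted p = 0.987). Itgb5 (ENSMUSG00000022817, chromosome 16, 33829665 to 33949338, plus strand) was at 12.1, 10.4 and 9.34 FPKM in Myrf-kd, against 10.1, 11.5 and 11.1 FPKM in WT. Its highest and its lowest value both belonged to Myrf-kd, and the fitted level was 95.9% of WT with an interval from 78.8% to 117% (edgeR adjusted p = 0.907).

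Itgav (ENSMUSG00000027087, chromosome 2, 83724397 to 83806916, plus strand), the partner subunit of Itgb5, stood apart in 1 library. It was at 4.47, 5.23 and 0.790 FPKM in Myrf-kd 1, 2 and 3, against 4.70, 5.09 and 5.20 FPKM in WT 1, 2 and 3. Myrf-kd 3 held 16.4% of the mean of Myrf-kd 1 and 2 on the CPM scale, at 167 fragments, while the other 5 libraries lay close together at up to 1121 fragments. WT 3, also female, lay among those 5. The estimate of 69.0% of WT therefore had an interval from 26.3% to 181% (edgeR adjusted p = 0.815). Without Myrf-kd 3 the log2 fold change was −0.06 in place of −0.54. Itgb5 exceeded Itgav 11.8-fold in Myrf-kd 3 and 2.7-fold and 1.99-fold in Myrf-kd 1 and 2, against 2.15-fold, 2.26-fold and 2.14-fold in WT 1, 2 and 3. A level more than 4 times below that of every other library was listed for 27 of 13674 genes in Myrf-kd 3, and for 13 to 23 genes in each of the other 5 libraries. Of the 8 genes only Itgav was among them. Exons of Itgav are also spanned by the opposite-strand gene Gm13684, which averaged 0.0136 FPKM in Myrf-kd and was listed without signal in WT.

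**Figure D3:**
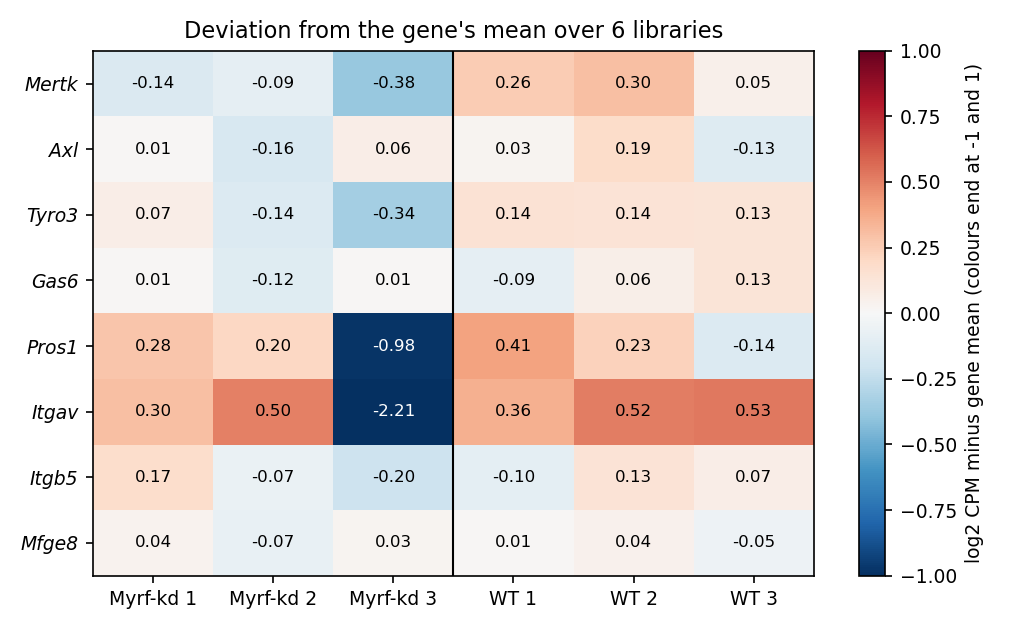
Log2 CPM of each gene in each library minus the gene's mean over the 6 libraries, with Myrf-kd columns left of WT and the value printed in each cell; colours end at −1 and 1. Itgav (−2.21) and Pros1 (−0.98) stand out in Myrf-kd 3, and the row of Mertk is negative in all 3 Myrf-kd columns and positive in all 3 WT columns.

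Over the 8 genes, Myrf-kd 3 was the lowest library on the CPM scale for Mertk, Tyro3, Pros1, Itgav and Itgb5, and Myrf-kd 2 for Axl, Gas6 and Mfge8. The genes did not share 1 profile over the libraries. By Euclidean distance between mean-centred log2 CPM profiles over 6 libraries, Tyro3 was the nearest of the other members to Mertk (0.303, rank 117 of 13673 genes), and Itgav the farthest (2.04, rank 13315). The 3 genes nearest to Mertk were Dact2 (0.104), the lysosomal protease gene Ctsl (0.139) and the secreted protease gene Htra1 (0.154). They were taken from the genes tested, with predicted gene names left out. Ctsl was at 16.5, 17.5 and 13.1 FPKM in Myrf-kd 1, 2 and 3, against 19.8, 21.4 and 17.8 FPKM in WT 1, 2 and 3. Htra1 was at 31.1, 31.0 and 26.2 FPKM in Myrf-kd, against 36.5, 37.7 and 32.7 FPKM in WT, and Dact2 averaged 1.29 ± 0.0966 FPKM in Myrf-kd, against 1.68 ± 0.208 FPKM in WT (SD, n = 3 each). These 3 genes were chosen for their likeness, so their difference between the groups is a description.

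Markers of the cells that could carry these transcripts were set beside Mertk. Of the pigment epithelium list, 10 genes were tested and 8 had an estimate below WT, the median log2 fold change being −0.28 (0 members past the test by edgeR, 1 lower at an unadjusted p under 0.05). Over all genes tested, 49.0% had an estimate below WT and 3.72% were lower at that p. The summed level of the 12 genes on the list was 494, 453 and 502 CPM (counts scaled to library depth alone) in Myrf-kd 1, 2 and 3, against 514, 537 and 625 CPM in WT 1, 2 and 3, and did not overlap. Without Rlbp1 and Rgr, which Mueller glia also express, the sum was 143, 119 and 144 CPM in Myrf-kd, against 144, 148 and 207 CPM in WT, so that the groups stood less than 1 CPM apart. None of the 12 genes was at 0 in all libraries. The summed Mueller glia list of 10 genes lay between 5110 and 5550 CPM in Myrf-kd and between 5210 and 5740 CPM in WT, and that of 10 microglia and macrophage genes between 22.8 and 27.2 CPM in Myrf-kd and between 24.2 and 26.1 CPM in WT. Both overlapped. The part of these cells in the Mertk values was not tested.

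**Figure D4:**
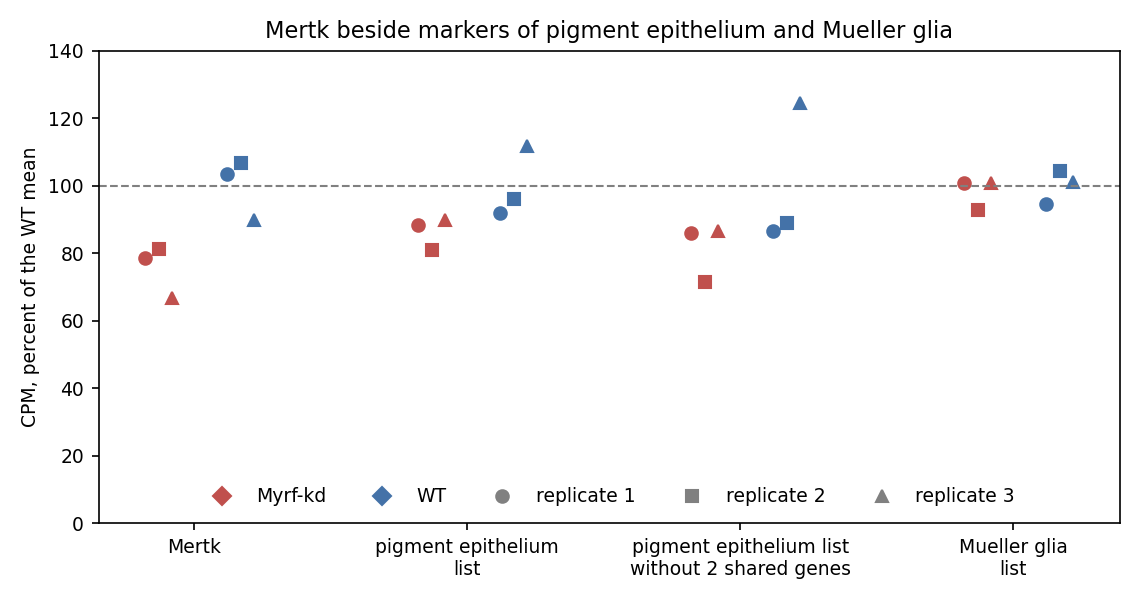
CPM of Mertk, of the summed pigment epithelium markers with and without the 2 genes shared with Mueller glia, and of the summed Mueller glia markers, each as a percentage of its WT mean (dashed line); red symbols are Myrf-kd, blue symbols WT, and shapes give the replicate number. Mertk and the full pigment epithelium list are lower in all 3 Myrf-kd libraries, while the Mueller glia list overlaps. Within each group, replicate 3 is the lowest for Mertk and the highest for the full pigment epithelium list.

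Of 8 rod genes, 7 had an estimate below WT, with a median log2 fold change of −0.06, and 0 passed the test by edgeR (1 lower at an unadjusted p under 0.05). The shares over all genes tested were 49.0% with an estimate below WT and 3.72% lower at that p. Of 6 ganglion cell genes and 3 tested astrocyte genes, 0 passed (0 at an unadjusted p under 0.05). The endothelium and mural cell list was at 364 ± 9.73 CPM in Myrf-kd, against 359 ± 13.5 CPM in WT (SD, n = 3 each). Lens genes summed to 1.65, 0.558 and 62.5 CPM in Myrf-kd 1, 2 and 3, against 21.5, 14.4 and 24.2 CPM in WT, so Myrf-kd 3 held the most lens RNA. Cornea genes summed to 0.919, 5.74 and 4.02 CPM in Myrf-kd, against 14.4, 22.7 and 15.5 CPM in WT, with no overlap. All 3 of those tested were lower at an unadjusted p under 0.05 by edgeR (0 past the test), against 3.72% of all genes tested. The part of these tissues in the values of Itgav, Pros1 and Mertk was not tested.

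Around the receptors and ligands, 7 of 8 genes of ligand processing, of other Mertk ligands and of receptor shedding passed the filter, 4 with higher and 3 with lower estimates, and 0 passed the test by edgeR (0 at an unadjusted p under 0.05). The list median was 0.03 on the log2 scale. Ggcx and Vkorc1, of the vitamin K cycle that matures Gas6 and protein S, had estimates of 0.17 and 0.32, and the shedding protease gene Adam17 of 0.20. These sizes rest on single libraries, since Vkorc1 was at 0.08 without WT 1, Adam17 at 0.05 without Myrf-kd 3 and Ggcx at 0.07 without WT 3. Tub, whose product is described as a Mertk ligand, was at 79.9, 72.3 and 72.0 FPKM in Myrf-kd 1, 2 and 3, against 78.8, 83.3 and 81.3 FPKM in WT 1, 2 and 3 (edgeR adjusted p = 0.697). Lgals3, of a further ligand, lay below the filter. Genes of TAM signalling and Mertk transcription were tested for 10 of 12, with 5 higher and 5 lower estimates, a median of −0.01 and 0 past the test (0 at an unadjusted p under 0.05). Among them the liver X receptor gene Nr1h2 had an estimate of 0.31, the interferon receptor gene Ifnar1 of 0.14, Rxra of −0.10 and the kinase gene Pik3ca of −0.31. With 1 library left out, Nr1h2 was lowest at 0.17 (without WT 3) and highest at 0.46 (without WT 1), and Ifnar1 ran from 0.08 (without WT 1) to 0.26 (without WT 2). Rxra was at −0.03 without WT 2, and Pik3ca ran from −0.49 (without WT 1) to −0.20 (without WT 2).

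Of the integrin partners and other receptors of phosphatidylserine, 5 of 11 passed the filter. Of these, 1 had a higher and 4 a lower estimate, against 49.0% lower over all genes tested. The median was −0.06, and 0 passed the test by edgeR (0 at an unadjusted p under 0.05). The 4 with the smallest p were Lrp1 (0.09), Scarb1 (−0.12), Itgb8 (−0.10) and Adgrb1 (−0.05, all log2 fold changes). Lrp1 was at 0.02 without WT 3 and at 0.18 without WT 2, and the other 3 changed sign with 1 library left out. Itgb6 and Timd4 were listed without signal in every library, and Itgb3, Cd36, Stab1 and Stab2 lay below the filter.

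In the engulfment list, 15 of 15 genes were tested, 2 with higher and 13 with lower estimates, a median of −0.06, and 0 past the test by edgeR (1 lower at an unadjusted p under 0.05). Over all genes tested, 49.0% had a lower estimate, 3.72% were lower at that p and 7.50% were lower without overlap. The 1 gene of the list was Bcar1, which encodes the docking protein p130Cas of integrin signalling. It was at 8.85, 10.8 and 10.2 FPKM in Myrf-kd 1, 2 and 3, against 13.1, 14.8 and 14.6 FPKM in WT 1, 2 and 3. The groups were apart, and the fitted level was 69.3% of WT with an interval from 59.2% to 81.1% (edgeR unadjusted p = 0.000954, adjusted p = 0.666). DESeq2 called it (adjusted p = 0.00367), and over the 15 alternatives its adjusted p ran from 0.00367 to 0.923. Crk, an adaptor that binds p130Cas, had an estimate of 0.12, Cdc42 of −0.08 and Anxa2 of −0.17. Without Myrf-kd 3 those of Crk, Cdc42 and Anxa2 were 0.06, −0.12 and −0.05.

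**Figure D5:**
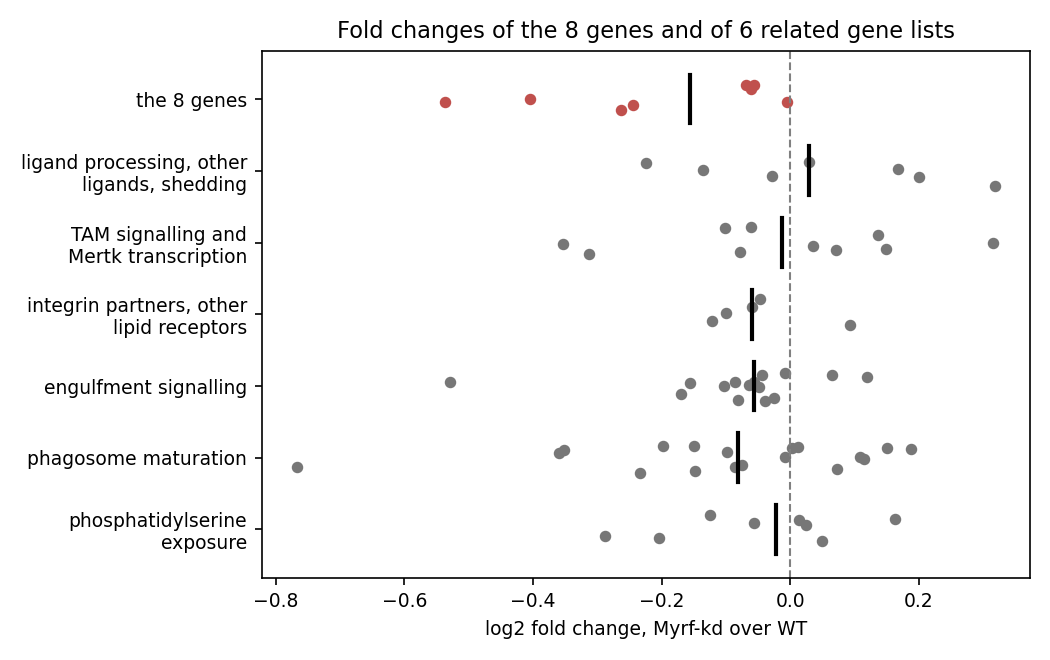
Log2 fold changes of Myrf-kd over WT (edgeR) for the 8 genes and for the tested genes of 6 related lists, 1 point per gene and a black bar at each median. Medians run from −0.16 for the 8 genes to 0.03 for ligand processing, and the lowest single points are Map1lc3b (−0.77), Itgav (−0.54) and Bcar1 (−0.53).

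Genes of phagosome maturation were tested for 18 of 19, with 7 higher and 11 lower estimates, a median of −0.08 and 0 past the test by edgeR (1 higher and 2 lower at an unadjusted p under 0.05). Among all genes tested, 3.76% were higher and 3.72% lower at that p, and 49.0% had a lower estimate. Groups did not overlap in 7.13% on the higher and 7.50% on the lower side. Uvrag, of the lipid kinase complex on phagosomes, was at 7.30, 7.02 and 5.49 FPKM in Myrf-kd 1, 2 and 3, against 7.58, 8.68 and 8.70 FPKM in WT 1, 2 and 3, with no overlap (edgeR adjusted p = 0.666). Atg12, of the machinery that attaches LC3 to membranes, was higher in all 3 Myrf-kd libraries, at 9.35 ± 0.546 FPKM, against 8.11 ± 0.429 FPKM in WT (SD, n = 3 each, edgeR adjusted p = 0.666). The LC3 gene Map1lc3b was at 10.1, 9.33 and 10.2 FPKM in Myrf-kd 1, 2 and 3, against 20.1, 20.4 and 9.46 FPKM in WT 1, 2 and 3. WT 3 lay among the Myrf-kd libraries, and with all 6 libraries the gene did not pass (edgeR adjusted p = 0.666). Without WT 3 it passed (edgeR adjusted p = 0.0169), but that fit drops the very library that overlapped and adds no support. With any other single library left out, the edgeR adjusted p of Map1lc3b was 0.547 to 0.904. The lysosomal membrane gene Lamp1 averaged 101 ± 6.36 FPKM in Myrf-kd, against 111 ± 2.47 FPKM in WT (SD, n = 3 each, edgeR adjusted p = 0.685). The summed list did not overlap, reaching 1900 CPM in Myrf-kd, against a lowest WT library of 1920 CPM, and without Map1lc3b it did.

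Genes that set phosphatidylserine exposure were tested for 8 of 9, with 4 higher and 4 lower estimates, a median of −0.02 and 0 past the test by edgeR (1 lower at an unadjusted p under 0.05). Of all genes tested, 3.72% were lower at that p and 7.50% were lower without overlap. The scramblase family gene Plscr1 was at 2.46, 2.62 and 2.50 FPKM in Myrf-kd 1, 2 and 3, against 3.03, 3.05 and 3.06 FPKM in WT 1, 2 and 3. Its groups were apart, with a fitted level of 81.9% of WT (edgeR adjusted p = 0.666). The flippase genes Atp11a and Atp8a2 had estimates of −0.20 and −0.13, and the scramblase gene Ano6 of 0.16. Ano6 ran from 0.03 (without WT 2) to 0.40 (without WT 3), and the sign changed without WT 2 for Atp11a and without Myrf-kd 3 for Atp8a2.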

How the data were processed

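RNA of retina was measured in 6 libraries, grouped by their titles. Per the submitters' processing notes, HISAT2 2.0, StringTie 1.3.0, Bowtie 0.12.2 and GRCm38 were used, in roles those notes leave unstated. The FPKM values, scaled by length and depth per the file headers, were used as deposited by the authors, who list genes without signal at 0.0001. The authors' second measure was treated as estimated counts. All are whole numbers, so rounding changed none, and since genes at 4 units outnumber those at 3 or 5, 1 fragment was taken as 4 units. FPKM and counts of every member are estimates that depend on how reads were divided among transcripts.

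Members, lists and tests were chosen with earlier results of these data known. The 13674 genes whose FPKM averaged 1 or more, with Myrf added, were tested with edgeR 4.0.16 (quasi-likelihood F test, TMM factors, genotype only, two-sided, Benjamini-Hochberg adjustment over all genes, threshold 0.05). The SE is the log2 fold change over the root of F. CPM are counts scaled to the TMM-adjusted library total. The test was checked on simulated counts. No 2 libraries of a group agreed within sampling noise (the lowest ratio of chi-square to its degrees of freedom was 14.0). Named are Myrf, the 8 members, up to 4 genes per pathway list by the smallest p, the 3 genes nearest to Mertk, and, for markers, up to 3 per list by level. Rpe65, the overlapping genes and the uneven genes were named after their values were seen, and most marker lists are given as sums. Alternatives used DESeq2 1.42.0, limma 3.58.1 on log2(FPKM + 1) or log2(FPKM + 0.1), other filters and factors, a replicate block, and libraries left out. Promoters are RefSeq's (GRCm38.p6), and all 8 members matched. Permutation tests were exact (SciPy).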

Additional observations from a re-analysis of the deposited data

How the results depend on the processing

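None of the 8 members passed in any of 15 alternatives, of which the division of counts by 4 was chosen after seeing the data. Members at an unadjusted p under 0.05 numbered 1 or 2 in each, Mertk among them every time. Over all 13674 genes tested, 1077 were under 0.05 with DESeq2, 1263 without Myrf-kd 1 and 525 without WT 3. The alternatives reuse the same 6 libraries, so they are not independent support for Mertk. The count of genes past the threshold over the table, 6 by edgeR, became 53 with DESeq2, 3 with a mean FPKM of at least 5 (members and Myrf kept), 0 with the replicate block (703 at an unadjusted p under 0.05) and 22 without both libraries numbered 3. It lay between 9 and 16 with 1 library left out, at 16 without Myrf-kd 3. Same-numbered libraries correlated at −0.04, 0.08 and 0.14 in their deviations from the group means, so the numbers were not taken as pairs. With the replicate block Mertk kept a log2 fold change of −0.41 (edgeR adjusted p = 0.818) and Itgav was at −0.87. Small estimates changed sign. Mfge8 was at 0.00911 with the stricter filter and at 0.0128 and 0.0131 in the limma fits, and Itgb5 at 0.0367 without both libraries numbered 3. With 1 library left out the log2 fold change ran from −0.133 to 0.0264 for Axl, −0.451 to 0.0612 for Pros1, −0.169 to 0.0217 for Itgb5, −0.0316 to 0.0297 for Mfge8, −0.209 to 0.0115 for Scarb1, −0.178 to 0.00783 for Itgb8, −0.0818 to 0.00131 for Adgrb1, −0.331 to 0.0109 for Atp11a and −0.219 to 0.00318 for Atp8a2. The cause was not tested. Depth limits Vkorc1 (29 to 60 fragments per library) and Myrf (44 to 80) most among the tested genes named.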

Other observations

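Of 124 tested genes on the lists, 21 had a highest library at least 2 times the lowest in FPKM. In several genes of the uptake pathway the values lay at 2 levels that did not follow the genotype. Rac1, the small GTPase of engulfment, was at 38.3, 9.60 and 37.3 FPKM in Myrf-kd 1, 2 and 3, against 39.0, 9.10 and 39.7 FPKM in WT 1, 2 and 3. Both libraries numbered 2 were low. Vkorc1l1, a relative of the vitamin K reductase gene, was low in Myrf-kd 1 (2.39 FPKM) and WT 2 (2.84 FPKM), and at 10.2 FPKM or more in the other 4 libraries. Grb2, an adaptor of receptor tyrosine kinases, was at 9.68 FPKM in Myrf-kd 2 and between 22.7 and 24.6 FPKM elsewhere. Itgav in Myrf-kd 3 and Map1lc3b in WT 1 and WT 2 are further genes in which 1 or 2 libraries stood far from the others of their group. The table gives 1 value per gene, so how these reads were divided among transcripts was not tested. These genes were picked for their spread, after their values were seen.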
